A study of Mus musculus with 24 samples.

Results

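The CXC chemokines are small secreted or membrane-bound proteins that guide leukocytes along a concentration gradient. 8 of their genes were followed in macrophage chromatin: Cxcl1, Cxcl2, Cxcl3, Cxcl5, Cxcl9, Cxcl10, Cxcl11 and Cxcl16. They were taken by name, as 8 of 21952 genes (21951 protein-coding genes and Cxcl11). Their open chromatin was found by giving each peak of each library to the nearest start of a protein-coding transcript within 100 kb. This put 23 of 44999 regions at the members, and 13 of these 23 held a peak in at least 3 libraries and were tested.

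Accessible DNA was mapped by ATAC-seq, which uses the Tn5 transposase to cut and tag open chromatin, in bone marrow-derived macrophages of male mice at postnatal day 28. Marrow cells were cultured for 7 days and 50000 cells went into each reaction. 4 animals were C57BL6/J (animals 1, 4, 6 and 7) and 4 were BTBR T+ Itpr3tf/J (BTBR; animals 2, 3, 5 and 8), and each animal gave 3 libraries. Media wells were washed and received media at the same steps. LPSx1 wells received media first and then lipopolysaccharide (LPS, an endotoxin of Gram-negative bacteria that Tlr4 senses) at 100 ng/ml for 24 hours. LPSx2 wells received LPS at 100 ng/ml for 4 hours, were washed, stood in base media for about 20 hours and received LPS at 100 ng/ml again for 24 hours. The comparisons ask what a single and a repeated LPS exposure do to open chromatin, whether the exposures differ, and whether the strains differ. The replicate is the animal.

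Cxcl1, Cxcl2, Cxcl3 and Cxcl5 carry the ELR amino acid motif before their cysteines and attract neutrophils through Cxcr2. In mouse macrophages Cxcl1 and Cxcl2 are classical early targets of LPS through Tlr4 and NF-kB. Cxcl9, Cxcl10 and Cxcl11 lack this motif, bind Cxcr3 on activated T cells and NK cells, and are induced by interferons, with Cxcl10 also induced by type I interferon that macrophages make after LPS. Cxcl16 is made as a membrane-bound protein that is also a scavenger receptor, and it binds Cxcr6.

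The 4 neutrophil-attracting genes lie on chromosome 5 of mm10 in the order Cxcl5 (chr5:90759360-90761624), Cxcl3 (chr5:90786103-90789600), Cxcl1 (chr5:90891241-90893115) and Cxcl2 (chr5:90903871-90905938), all on the plus strand. Cxcl9 (chr5:92321347-92328079), Cxcl10 (chr5:92346638-92348889) and Cxcl11 (chr5:92359544-92365485) lie further along the same chromosome on the minus strand, and Cxcl16 (chr11:70453983-70459984, minus strand) stands alone. The annotation types Cxcl11 as a polymorphic pseudogene, so under the rule it had no protein-coding start to which a peak could be given. Values with its own starts added, a choice made after the annotation and lists were seen, are printed beside.

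RefSeq promoter sequences (GRCm38.p6, the assembly behind mm10; 250 bases before the gene start to 50 after it) were matched for Cxcl1, Cxcl2, Cxcl3, Cxcl9 and Cxcl10, 5 of the 8 members. Bases -130 to -31 from the RefSeq start are shown for 4 of them, because 3 neutrophil attractants share an NF-kB match there and because the Cxcl10 promoter was listed mainly after LPS. Capitals mark matches to the NF-kB and AP-1 (TGACTCA or TGAGTCA) consensus, searched on both strands.
Cxcl1, chr5:90891115-90891214, plus strand: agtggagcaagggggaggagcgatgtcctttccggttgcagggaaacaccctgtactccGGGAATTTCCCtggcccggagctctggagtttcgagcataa
Cxcl2, chr5:90903769-90903868, plus strand: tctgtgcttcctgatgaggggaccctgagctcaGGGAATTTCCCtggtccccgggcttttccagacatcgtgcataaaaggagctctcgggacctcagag
Cxcl3, chr5:90785971-90786070, plus strand: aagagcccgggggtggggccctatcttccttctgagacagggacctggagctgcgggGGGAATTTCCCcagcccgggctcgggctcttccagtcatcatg
Cxcl10, chr5:92348920-92349019, minus strand: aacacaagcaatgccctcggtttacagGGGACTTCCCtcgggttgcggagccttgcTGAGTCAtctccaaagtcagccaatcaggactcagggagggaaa
The same 11 letters, GGGAATTTCCC, stood at -71 in Cxcl1, at -97 in Cxcl2 and at -73 in Cxcl3, counted from the RefSeq start to the first base of the match. Of all 32851 RefSeq promoters of this length, 4.51% held an NF-kB match and 5.20% an AP-1 match. The Cxcl10 promoter held a further NF-kB match, GGGAAATTCC at -159, and an ISRE-like match (GAAA, any 2 bases, GAAA; 3.44% of promoters) at -213. The Cxcl9 promoter held an AP-1 match at 31 bases past the start and none of the NF-kB or ISRE-like letters. A match is a description of the letters and not a bound site.

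The files are peak lists, 1 per library, with peaks 201 bp wide and a score whose scale is not given in the sources used here. Overlapping peaks were merged, and every list of a sequencing lane was limited to the same number of its highest-scoring peaks (11349, 22037, 16045 and 13957 in lanes 1 to 4). A peak number below counts peaks in these equal-length lists. A rank value is the percentile of a region's strongest peak in the list of that library, from 100 for the strongest peak to 0 for no listed peak. Deposited lists held 299 to 127291 peaks, and reads per library are not given. The media and LPSx2 lists of C57BL6/J animal 6 (299 and 1879 peaks) were left out. This left 7 media, 8 LPSx1 and 7 LPSx2 libraries. In every fit of lanes 3 and 4 below, C57BL6/J in media and in LPSx2 is therefore animal 7 alone. 7 lists held most peaks in overlapping copies (66.7% to 87.4% of peaks): those of animal 1 in every treatment, and those of animals 3 and 4 in media and LPSx2. Without these 7 lists none of the calls below at members, listed genes or neighbouring regions passed the threshold. The 10 macrophage markers were all tested, with peaks summing to 9 to 42 per media library, 8 to 48 per LPSx1 library and 8 to 57 per LPSx2 library, while the 5 B cell markers summed to 0 to 1, the 6 neutrophil markers to 0 to 4 and the 8 T and NK cell markers to 3 to 10. The 4 endothelial markers summed to 2 to 9, the 5 dendritic cell markers to 0 to 6, the 6 stromal markers to 0 to 5. The 4 erythroid markers summed to 0 to 2. These lists differ in size, so their sums are not on the same scale and do not measure purity. 4 markers passed by limma. Camp, a neutrophil granule gene, was higher in both LPS groups (adjusted p = 0.00743 and 0.00799). Lyz2, the macrophage lysozyme, was higher by 1.53 peaks in LPSx1 (adjusted p = 0.0398), though not with the animal as a block (0.0653). Bcl11b, a T cell transcription factor, was higher by 1.5 in LPSx2 (adjusted p = 0.0311), and Flt3, a dendritic cell growth factor receptor, was lower by 1.13 (adjusted p = 0.0169). Their part in the results was not tested. In bulk chromatin, fewer cells with an open region and a less open region per cell cannot be told apart.

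The 22 libraries held 142 peaks at members: 46 at Cxcl2, 37 at Cxcl1, 32 at Cxcl5, 17 at Cxcl10, 9 at Cxcl3 and 1 at Cxcl16. Cxcl9 and Cxcl11 had none. The media libraries held 1 to 9 such peaks (4.14 ± 3.13, SD, n = 7), the LPSx1 libraries 3 to 14 (7.13 ± 3.80, n = 8) and the LPSx2 libraries 3 to 15 (8.00 ± 4.04, n = 7). Per 10000 listed peaks this was 2.51 ± 1.69, 4.63 ± 2.48 and 5.05 ± 2.04. The groups overlapped in every case, and the lanes also differed: lane 2, with the longest lists, held 7 to 15 member peaks per library and lane 4 held 2 to 5. Peak numbers were fitted over 9135 genes that averaged 0.5 peaks or more per library, a level 4 of the 8 members reached (Cxcl1, Cxcl2, Cxcl5 and Cxcl10). This average covers all treatments, so a gene low in media can reach it through its LPS libraries.

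**Figure D1:**
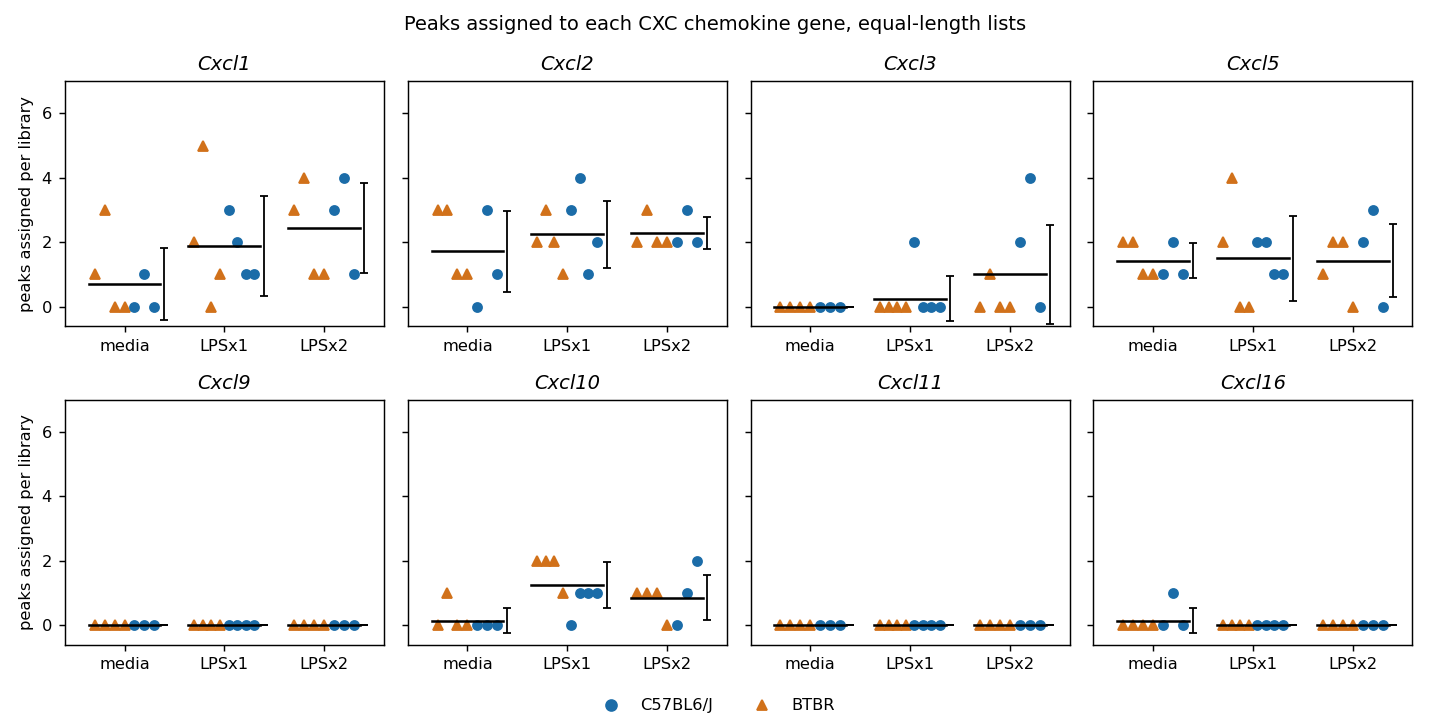
Peaks assigned to each of the 8 genes (vertical axis, peaks per library in equal-length lists) in media, LPSx1 and LPSx2 libraries; circles are C57BL6/J and triangles BTBR, the black line is the mean and the bar its SD. Cxcl1 and Cxcl10 have most of their media libraries at 0 and most of their LPS libraries above 0, Cxcl2 and Cxcl5 overlap widely across treatments, and Cxcl9 and Cxcl11 are at 0 throughout.

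Cxcl1, which encodes the mouse neutrophil attractant also called KC, had more peaks after repeated LPS. The media libraries held 0, 1 and 0 peaks in C57BL6/J animals 1, 4 and 7 and 1, 3, 0 and 0 in BTBR animals 2, 3, 5 and 8. The LPSx2 libraries of the same animals held 3, 4, 1, 3, 4, 1 and 1. Every animal had more peaks in LPSx2 than in media, although the ranges overlapped because BTBR animal 3 held 3 peaks in media. The difference was 1.79 ± 0.408 peaks (SE; limma, adjusted p = 0.0218; higher in 7 of 7 animals), and Cxcl1 was the only 1 of the 4 tested members called higher in LPSx2, where 3.42% of all genes tested were called higher. The LPSx1 libraries held 3, 2, 1 and 1 peaks in C57BL6/J animals 1, 4, 6 and 7 and 2, 5, 0 and 1 in BTBR animals 2, 3, 5 and 8. They exceeded media by 1.42 ± 0.397 peaks in 6 of 7 animals with none lower, which missed the threshold (adjusted p = 0.0541). Within lanes 1 and 2 the LPSx2 difference was 2.25 peaks (adjusted p = 0.214) and within lanes 3 and 4 it was 1.00 (adjusted p = 0.225), and it was lost when animal 1, 2, 5 or 8 was left out (adjusted p up to 0.0918).

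The Cxcl1 peaks did not lie at its start. No library held a listed peak within 500 bp of the first base of Cxcl1, while 44.8% of protein-coding genes had such a peak in at least 1 library. In the full-length lists, 2 LPSx1 and 2 LPSx2 libraries and no media library had 1. The NF-kB match shown for Cxcl1 was therefore in no listed peak of the equal-length lists. In LPSx1 of C57BL6/J animal 1, 1 Cxcl1 peak had its centre nearer Cxcl1 but lay in the region named Cxcl2 -6.3 kb. The other Cxcl1 peaks fell into 6 upstream regions and 1 downstream region of intergenic DNA. The most frequent was the Cxcl1 -9.4 kb region (chr5:90881627-90882022), named by its distance from the start of Cxcl1.

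The Cxcl1 -9.4 kb region was listed in 1 of 7 media, 7 of 8 LPSx1 and 7 of 7 LPSx2 libraries. With the cut set at these counts, 0.327% of all regions held a pattern at least as strong. All regions here include those listed in too few libraries to be tested. Such a share is a description and not a measure of chance. In media the rank value of the Cxcl1 -9.4 kb region was 35.7 in BTBR animal 3 and 0 in the other 6 libraries. After a single dose it was 51.7, 73.0, 22.9 and 14.0 in C57BL6/J animals 1, 4, 6 and 7 and 72.8, 35.4, 0 and 31.6 in BTBR animals 2, 3, 5 and 8. After the repeated dose it was 72.6, 60.2 and 17.6 in C57BL6/J animals 1, 4 and 7 and 24.8, 73.2, 8.2 and 5.0 in BTBR animals 2, 3, 5 and 8. Both LPS groups reached high values in lanes 1 and 2 and stayed lower in lanes 3 and 4, and each overlapped media only through animal 3 or a library at 0. The region rose by 36.6 ± 9.85 rank points in LPSx1 (limma, adjusted p = 0.0109; higher in 5 and lower in 1 of 7 animals). It rose by 34.5 ± 10.1 in LPSx2 (adjusted p = 0.0177; higher in 7 of 7 animals). By the fit it was the only 1 of 13 member regions called higher in LPSx1, where 7.24% of all regions tested were called higher. In LPSx2 it was 1 of 2 called of the 13, where 8.18% of all regions were called higher. It and the other, Cxcl2 +2.8 kb, reached the minimum of 3 libraries only through LPS libraries. Counted by listing alone, 3 of the 23 member regions were gained in LPSx1 in at least 5 animals with the reverse in none (Cxcl1 -9.4 kb, Cxcl2 +2.8 kb and the Cxcl10 promoter; 1.86% of all regions), and 2 of 23 in LPSx2 (Cxcl1 -9.4 kb and Cxcl2 +2.8 kb; 2.10% of all regions).

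In the lane subsets the Cxcl1 -9.4 kb region was higher by 49.3 in LPSx1 and 48.7 in LPSx2 for lanes 1 and 2 (adjusted p = 0.102 and 0.107). It was higher by 18.4 and 12.1 for lanes 3 and 4 (adjusted p = 0.451 and 0.679). The LPSx1 call was lost without animal 2 or 4, and the LPSx2 call without animal 1, 3 or 4. Its strongest peak was in LPSx2 of BTBR animal 3 and is shown because this is the member region called in both LPS groups. The capitals mark a C/EBP match (TTGCNNAA), which 12.5% of all region windows and 15.6% of those over 1 kb from a start held. The match is at the first bases of the shown peak, whose centre was at -9475 bp. Median centres were -9426 bp in LPSx1 and -9437 bp in LPSx2, and most listed peaks of the region began past the match. No NF-kB, AP-1 or ISRE-like match was in the window shown.
Cxcl1 -9.4 kb, chr5:90881666-90881866, plus strand: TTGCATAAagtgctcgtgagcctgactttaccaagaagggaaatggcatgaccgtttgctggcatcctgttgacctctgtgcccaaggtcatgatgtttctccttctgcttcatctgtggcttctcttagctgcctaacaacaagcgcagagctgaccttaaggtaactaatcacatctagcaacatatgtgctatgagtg

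The other tested Cxcl1 regions did not pass in either LPS group. The Cxcl1 -29.2 kb region was listed in 3 media, 4 LPSx1 and 3 LPSx2 libraries, all of them in lanes 1 and 2. Its differences were 12.3 and 5.92 rank points (adjusted p = 0.285 and 0.637). The Cxcl1 -14.2 kb region was listed in 1 media, 0 LPSx1 and 3 LPSx2 libraries and differed by 12.6 in LPSx2 (adjusted p = 0.0884). The Cxcl1 -32.0 kb region was listed in 0 media, 1 LPSx1 and 3 LPSx2 libraries. The remaining positions (-33.5, -13.9 and +3.2 kb) each had a single library.

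**Figure D2:**
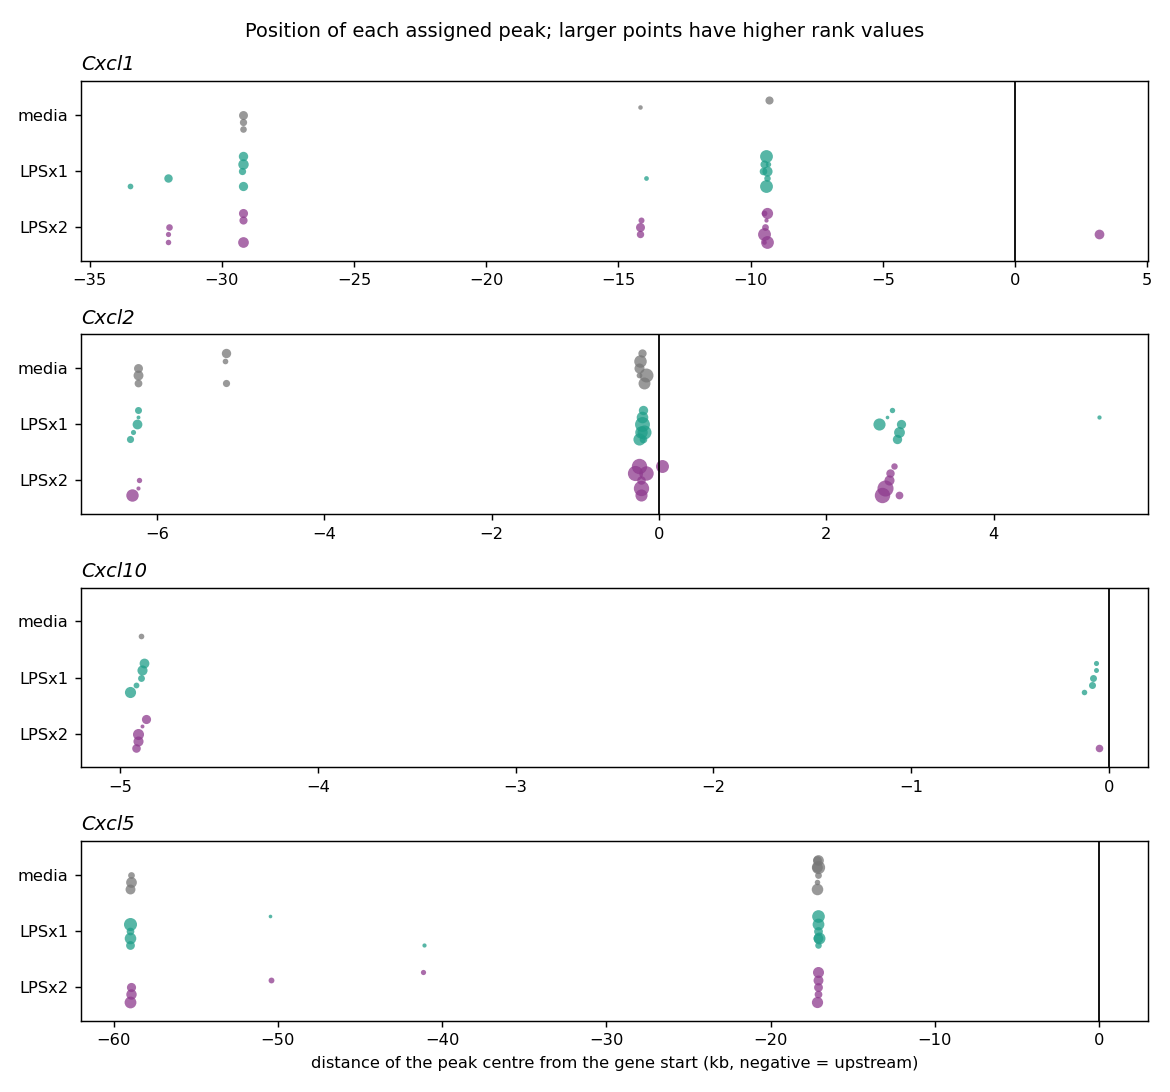
Distance of each peak centre from the gene start (kb, negative is upstream) for Cxcl1, Cxcl2, Cxcl10 and Cxcl5, with media, LPSx1 and LPSx2 libraries on separate rows and the point size growing with the rank value. Peaks recur at fixed positions. Cxcl1 has an LPS column at -9.4 kb and nothing at the start. Cxcl2 has peaks just upstream of the start in all treatments and at +2.8 kb in LPS libraries alone. Cxcl10 has its start peaks in LPS libraries alone.

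Cxcl2 encodes the neutrophil attractant also called MIP-2. Its peak number did not pass in any comparison, while 1 of its regions rose after repeated LPS. The number of peaks was 0 to 3 in media (median 1; 1.71 ± 1.25, n = 7), 1 to 4 in LPSx1 (2.25 ± 1.04, n = 8) and 2 to 3 in LPSx2 (2.29 ± 0.488, n = 7). The differences from media were 0.70 ± 0.344 in LPSx1 (limma, adjusted p = 0.260) and 0.63 ± 0.353 in LPSx2 (adjusted p = 0.296).

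As a union of peaks, the Cxcl2 promoter region (chr5:90903482-90904008) covers the start, 5′ untranslated exon sequence and the beginning of the coding sequence. Only the LPSx2 peak of BTBR animal 8 (chr5:90903808-90904008) reached the start at base 90903871. Before LPS the region was open upstream of the start, with no media peak ending past base 90903815. It was listed in 6 of 7 media, 7 of 8 LPSx1 and 7 of 7 LPSx2 libraries, the most of any member region. In media the rank values were 0, 70.5 and 65.9 in C57BL6/J animals 1, 4 and 7 and 16.9, 51.2, 37.1 and 81.8 in BTBR animals 2, 3, 5 and 8. In LPSx2 they were 91.7, 92.4 and 38.9 in C57BL6/J and 67.2, 93.1, 85.4 and 73.8 in BTBR. All LPSx2 libraries but that of C57BL6/J animal 7 were at 67.2 or above, a level that 2 media libraries also reached. The LPSx2 difference of 31.0 ± 11.8 missed the threshold (limma, adjusted p = 0.0633; higher in 5 of 7 animals). It was 51.5 in lanes 1 and 2 (limma, adjusted p = 0.0743) and -3.43 in lanes 3 and 4. The second value rests on animal 7 alone for C57BL6/J, which had 65.9 in media and 38.9 in LPSx2. In LPSx1 the difference was 13.1 (adjusted p = 0.445).

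The centres of the Cxcl2 promoter peaks lay upstream of the start, with medians of -214.5 bp in media, -204 bp in LPSx1 and -215 bp in LPSx2. The exception was LPSx2 of BTBR animal 8, at 37 bp past the start. The shared NF-kB match of Cxcl2 lay inside the 201 bp peak in 2 of the 20 libraries with a promoter peak (media of BTBR animal 8 and LPSx2 of BTBR animal 5). In LPSx2 of BTBR animal 8 the peak began inside the match and ran past it, and in the other 17 libraries it ended before it. The strongest promoter peak, from LPSx2 of BTBR animal 3, is shown because it is where accessibility was listed. It held none of the NF-kB, ISRE-like, AP-1, C/EBP or PU.1 (GAGGAAGT) letters.
Cxcl2 promoter, chr5:90903531-90903731, plus strand: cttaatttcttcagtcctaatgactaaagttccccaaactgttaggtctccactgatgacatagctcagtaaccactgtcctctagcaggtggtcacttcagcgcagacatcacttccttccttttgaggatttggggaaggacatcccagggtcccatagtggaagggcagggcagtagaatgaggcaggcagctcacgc

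The Cxcl2 +2.8 kb region (chr5:90906396-90906870) lies in intergenic DNA just past the end of Cxcl2. It was listed in 0 of 7 media, 5 of 8 LPSx1 and 6 of 7 LPSx2 libraries. With the cut set at these counts, 0.709% of all regions held a pattern at least as strong. In the full-length lists the Cxcl2 +2.8 kb region was in 0 of 7 media, 7 of 8 LPSx1 and 7 of 7 LPSx2 libraries. In LPSx1 the rank values were 67.5, 57, 0 and 14.0 in C57BL6/J animals 1, 4, 6 and 7 and 0, 0.281, 45.3 and 0 in BTBR animals 2, 3, 5 and 8. In LPSx2 they were 93.3, 98.6 and 22.3 in C57BL6/J animals 1, 4 and 7 and 0, 51.2, 32.6 and 38.0 in BTBR animals 2, 3, 5 and 8. The LPSx2 values of C57BL6/J animals 1 and 4 were the highest of any tested member region in any library, and the peak of animal 4 ranked 302 of 22037. No media library had a value above 0, while 1 LPSx2 and 3 LPSx1 libraries were also at 0.

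The Cxcl2 +2.8 kb region rose by 50.9 ± 11.5 rank points in LPSx2 (limma, adjusted p = 0.00259; higher in 6 of 7 animals, lower in 0). The LPSx1 difference of 23.0 ± 11.2 did not pass (adjusted p = 0.156; higher in 5 of 7, lower in 0), but with full-length lists it was 53.5 and passed (adjusted p = 0.00596). The LPSx2 difference was 60.8 in lanes 1 and 2 (adjusted p = 0.0266) and 28.8 in lanes 3 and 4 (adjusted p = 0.387), and without animal 4 the adjusted p was 0.0579. Its strongest peak is shown because this is the member region with the lowest adjusted p. None of the 5 motifs named above was in it.
Cxcl2 +2.8 kb, chr5:90906474-90906674, plus strand: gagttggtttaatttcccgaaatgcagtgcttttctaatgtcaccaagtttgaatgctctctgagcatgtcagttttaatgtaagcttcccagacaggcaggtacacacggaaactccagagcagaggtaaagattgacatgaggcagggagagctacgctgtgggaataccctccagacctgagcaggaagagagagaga

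A further Cxcl2 region, at -5.2 kb (chr5:90898578-90898796), went the other way in listing. It was chosen for mention after its values were seen. It was listed in media of C57BL6/J animal 4 (28.4) and BTBR animals 2 (45.6) and 3 (16.2) and in no LPS library, as were 1.74% of all regions. The differences of -11.8 and -12.5 did not pass (limma, adjusted p = 0.119 and 0.102). In the full-length lists it was in 5 media, 4 LPSx1 and 4 LPSx2 libraries, so the absence after LPS held only among the strongest peaks. The Cxcl2 -6.3 kb region was listed in 3 media, 5 LPSx1 and 3 LPSx2 libraries and differed by -1.25 and -3.85 (adjusted p = 0.937 and 0.776).

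**Figure D3:**
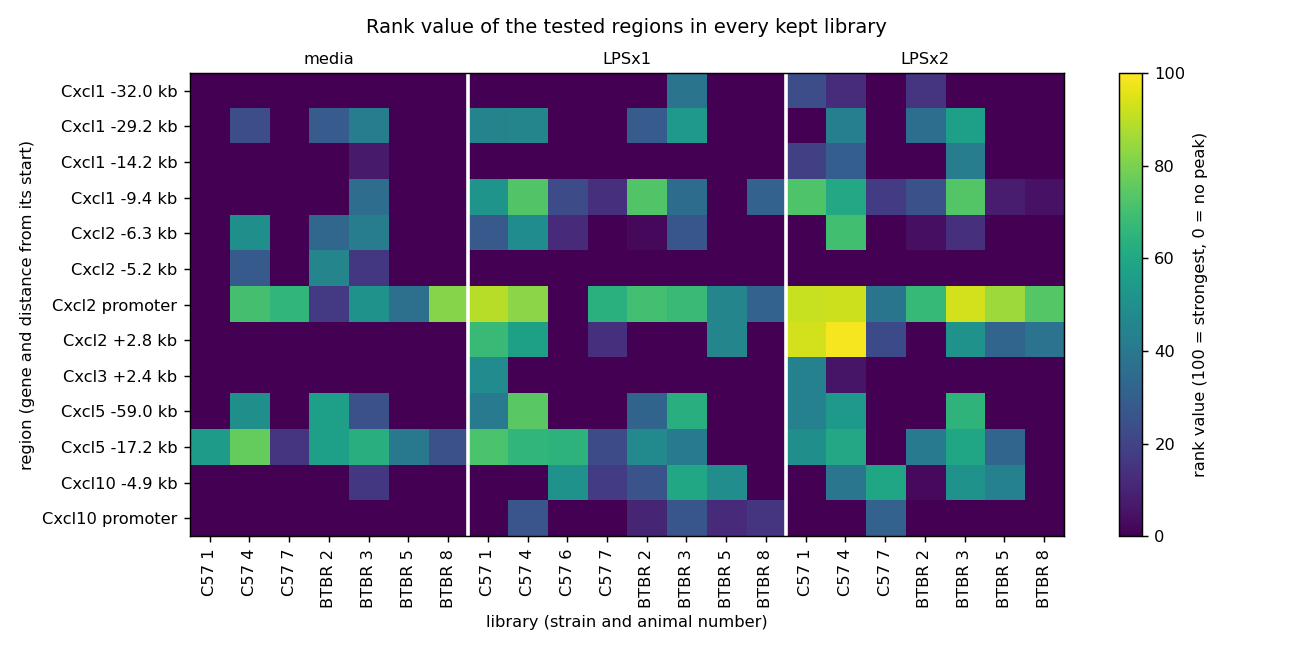
Rank value (colour, 100 is the strongest peak and 0 is no listed peak) of the 13 tested member regions (rows) in the 22 kept libraries (columns, by treatment, strain and animal). The Cxcl1 -9.4 kb and Cxcl2 +2.8 kb rows are at 0 in most media libraries and above 0 in most LPS libraries, at values from low to high. The Cxcl2 promoter and Cxcl5 -17.2 kb rows are above 0 in most libraries of all 3 treatments. The weaker rows are listed mainly in animals 1 to 4.

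Cxcl3, a close relative of Cxcl1 and Cxcl2, had no peak in any media library. Peaks were assigned to it in LPSx1 of C57BL6/J animal 1 (2 peaks) and in LPSx2 of C57BL6/J animals 1 (2) and 4 (4) and BTBR animal 3 (1). These 4 libraries, all in lanes 1 and 2, are among the 7 whose lists held overlapping copies. The gene was under the minimum of 0.5 peaks and was not tested in the main comparison. With no minimum, the LPSx2 difference was 1.13 ± 0.402 peaks (limma, adjusted p = 0.0960) and the LPSx1 difference 0.28 (adjusted p = 0.725). The Cxcl3 +2.4 kb region (chr5:90788411-90788647), in a Cxcl3 exon, was the only Cxcl3 region with 3 libraries, with a rank value of 48.3 in LPSx1 and 43.8 in LPSx2 of C57BL6/J animal 1. A listed peak held the NF-kB match of Cxcl3 in 1 library, LPSx2 of C57BL6/J animal 4.

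Cxcl5, the LIX chemokine of mouse, had open chromatin at a distance in media and no call after LPS. Its peak number was 1 to 2 in media (1.43 ± 0.535, n = 7), 0 to 4 in LPSx1 (1.5 ± 1.31, n = 8) and 0 to 3 in LPSx2 (1.43 ± 1.13, n = 7). The differences were 0.16 ± 0.403 and 0.04 ± 0.414 (limma, adjusted p = 0.902 and 1). No library, with equal or full length, had a peak within 500 bp of its start.

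The Cxcl5 -17.2 kb region (chr5:90742056-90742392), intergenic, was listed in all 7 media libraries, as were 12.8% of all regions, and in 6 of 8 LPSx1 and 5 of 7 LPSx2 libraries. Its rank values in media were 55.0, 76.4 and 15.1 in C57BL6/J animals 1, 4 and 7 and 56.3, 62.7, 40.3 and 24.8 in BTBR animals 2, 3, 5 and 8. In LPSx2 they were 49.8, 60.2 and 0 in C57BL6/J and 41.2, 58.7, 32.6 and 0 in BTBR. Every animal was lower in LPSx2 than in media and the difference of -12.5 ± 8.88 did not pass (limma, adjusted p = 0.327). In LPSx1 it was -7.29 (adjusted p = 0.584). The strongest peak, from media of C57BL6/J animal 4, is shown as the member region open in every media library. The capitals mark a PU.1 match, which 8.69% of all region windows held.
Cxcl5 -17.2 kb, chr5:90742140-90742340, plus strand: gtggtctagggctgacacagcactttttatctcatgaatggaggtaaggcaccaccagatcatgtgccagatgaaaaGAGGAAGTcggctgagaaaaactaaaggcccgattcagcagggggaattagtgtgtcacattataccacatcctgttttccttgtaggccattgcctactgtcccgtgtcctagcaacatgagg
The Cxcl5 -59.0 kb region was listed in 3 media, 4 LPSx1 and 3 LPSx2 libraries (adjusted p = 0.397 and 0.691) and also held a PU.1 match in its strongest peak.

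Among the Cxcr3 ligands, Cxcl10 gained peaks after a single LPS dose. Its peak number in media was 0 in all 3 C57BL6/J libraries and 0, 1, 0 and 0 in BTBR animals 2, 3, 5 and 8. In LPSx1 it was 0, 1, 1 and 1 in C57BL6/J animals 1, 4, 6 and 7 and 2, 2, 2 and 1 in BTBR animals 2, 3, 5 and 8. In LPSx2 it was 0, 1 and 2 in C57BL6/J animals 1, 4 and 7 and 1, 1, 1 and 0 in BTBR animals 2, 3, 5 and 8. Only C57BL6/J animal 1 lacked a Cxcl10 peak after a single dose. The LPSx1 difference was 1.10 ± 0.290 peaks (limma, adjusted p = 0.0416; higher in 6 and lower in 0 of 7 animals), and Cxcl10 was the only 1 of 4 tested members called higher in LPSx1, where 3.31% of all genes tested were. In LPSx2 it was 0.75 ± 0.299 (adjusted p = 0.140; higher in 4, lower in 0). The LPSx1 difference was similar in lanes 1 and 2 (1.00, adjusted p = 0.168) and lanes 3 and 4 (1.13, adjusted p = 0.267). It was lost when animal 2, 3, 4, 5 or 6 was left out (adjusted p up to 0.171).

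The 17 Cxcl10 peaks lay at 2 places, its promoter and -4.9 kb. The Cxcl10 promoter region (chr5:92348838-92349113), at the start of Cxcl10 and in an intron of Art3 on the other strand, was chosen for mention after its values were seen. It was listed in 0 of 7 media, 5 of 8 LPSx1 and 1 of 7 LPSx2 libraries. With the cut set at these counts, 0.0467% of all regions held a pattern at least as strong, which is not a measure of chance. The rank values in LPSx1 were 26.5 in C57BL6/J animal 4 and 10.5, 26.8, 11.9 and 15.3 in BTBR animals 2, 3, 5 and 8, and in LPSx2 31.4 in C57BL6/J animal 7. All were in the weaker part of their lists, and the differences of 11.8 ± 5.51 in LPSx1 and 5.24 in LPSx2 did not pass (limma, adjusted p = 0.138 and 0.539). In the full-length lists the promoter was in 2 media, all 8 LPSx1 and 3 LPSx2 libraries. The difference of -6.59 between LPSx2 and LPSx1 did not pass (limma, adjusted p = 1).

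The 5 LPSx1 peaks of the Cxcl10 promoter had centres from -124 to -64 bp, and the LPSx2 peak was centred at -49 bp. All 6 held the NF-kB match at -103 and the AP-1 match at -74 shown in capitals above. The 5 LPSx1 peaks also held the NF-kB match at -159, and 1 of them, in BTBR animal 8, held the ISRE-like match at -213. In the Cxcl10 promoter the listed peaks thus covered the NF-kB letters, and in the Cxcl2 promoter most did not. Peaks have a fixed width of 201 bp, and only the higher-scoring of overlapping peaks was kept. The listed peaks therefore do not give the full extent of open DNA.

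The Cxcl10 -4.9 kb region (chr5:92353661-92353942), in an Art3 intron, was listed in 1 of 7 media, 5 of 8 LPSx1 and 5 of 7 LPSx2 libraries. Its media value was 16.2 in BTBR animal 3. In LPSx1 it was 51.5 and 17.5 in C57BL6/J animals 6 and 7, 25.7, 59.6 and 48.9 in BTBR animals 2, 3 and 5, and 0 in C57BL6/J animals 1 and 4 and BTBR animal 8. In LPSx2 it was 39.3 and 58.8 in C57BL6/J animals 4 and 7, 2.5, 51.2 and 43.9 in BTBR animals 2, 3 and 5, and 0 in C57BL6/J animal 1 and BTBR animal 8. The differences of 20.7 ± 9.71 in LPSx1 (limma, adjusted p = 0.141) and 26.5 ± 9.98 in LPSx2 (adjusted p = 0.0599) did not pass. With the animal as a block the LPSx2 difference passed (adjusted p = 0.0396). The strongest peak, from LPSx1 of BTBR animal 3, held none of the 5 motifs. It is shown because this region gave most Cxcl10 peaks.
Cxcl10 -4.9 kb, chr5:92353742-92353942, minus strand: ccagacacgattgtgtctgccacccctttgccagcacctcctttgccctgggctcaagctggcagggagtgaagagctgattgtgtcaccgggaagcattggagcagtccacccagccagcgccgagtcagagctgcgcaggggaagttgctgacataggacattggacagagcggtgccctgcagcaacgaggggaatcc

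Cxcl9 and Cxcl11, the other Cxcr3 ligands, gave almost nothing under the rule. Cxcl9 had 0 peaks in every library in equal-length and full-length lists. Cxcl11 could receive no peak without a protein-coding start. With its own starts added it took 1 peak in 2 of 7 media, 6 of 8 LPSx1 and 4 of 7 LPSx2 libraries, a difference of 0.48 ± 0.276 in LPSx1 (limma, adjusted p = 0.340) and 0.33 in LPSx2 (adjusted p = 0.508). Those peaks were at chr5:92369171-92369410, -3.8 kb from the start of Cxcl11, a region that the rule gave to Art3 and that was chosen after its values were seen. Its rank value was 3.50 ± 6.25 in media, 38.5 ± 29.1 in LPSx1 and 28.5 ± 28.0 in LPSx2. It passed in LPSx1 (34.9; limma, adjusted p = 0.0234) and not in LPSx2 (26.5, adjusted p = 0.0856). The LPSx1 difference was 54.1 in lanes 1 and 2 (adjusted p = 0.0287) and 12.3 in lanes 3 and 4 (adjusted p = 0.894), and the call was lost without animal 1, 2, 3 or 4 (adjusted p up to 0.180).

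Cxcl16 had 1 peak in all, in media of C57BL6/J animal 4. A region over its start (chr11:70459715-70460071), given by the rule to the divergent gene Zmynd15, was listed in 1 media, 2 LPSx1 and 0 LPSx2 libraries, and in 5, 3 and 2 in the full-length lists. With no minimum on peak number, Cxcl16 differed by -0.17 in both LPS groups (limma, adjusted p = 0.422 and 0.403). Past the end of Cxcl16, a region given to Med11 (chr11:70452082-70452402) lies 323 bases from the start of Med11 and 7.7 kb from that of Cxcl16. It was listed in all 7 media, 7 of 8 LPSx1 and 7 LPSx2 libraries and did not pass (limma, adjusted p = 0.238 and 0.229). Another Med11 region, 13.1 kb downstream of the Cxcl16 start (chr11:70446691-70446996), was the only region within 20 kb of Cxcl16 that passed in an LPS group. It was listed in 6 of 7 media, 0 of 8 LPSx1 and 1 of 7 LPSx2 libraries, with a mean rank value of 27.9 ± 20.2 in media, 0 in LPSx1 and 3.06 ± 8.11 in LPSx2. It fell by 28.8 in LPSx1 (limma, adjusted p = 0.00670) and by 25.6 in LPSx2 (adjusted p = 0.0167). The LPSx2 call was lost without animal 1, 4 or 5 (adjusted p up to 0.0755). The Med11 regions were chosen after their values were seen.

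**Figure D4:**
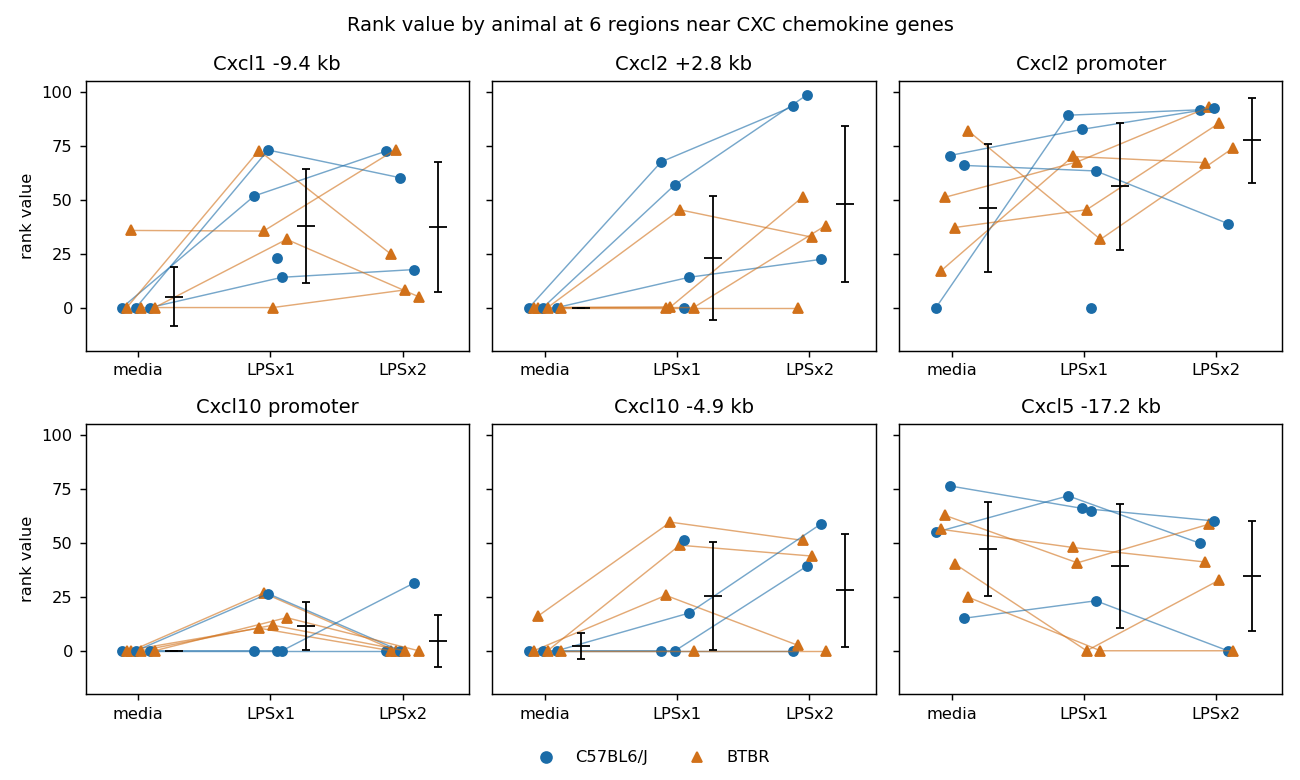
Rank value (vertical axis, 0 to 100) of 6 regions in media, LPSx1 and LPSx2 libraries, with lines joining the libraries of an animal; circles are C57BL6/J, triangles BTBR, and the black dash and bar are the mean and SD. The Cxcl1 -9.4 kb and Cxcl2 +2.8 kb regions are above 0 after LPS in most animals, while the Cxcl10 promoter is at 0 in all LPSx2 libraries but 1.

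The repeated dose was compared with the single dose directly. No gene of 9135 was called in LPSx2 minus LPSx1 by limma (0% called; 400 had an unadjusted p under 0.05), and no region of 28795 (1512 had an unadjusted p under 0.05). The members differed by 0.38 peaks at Cxcl1, -0.07 at Cxcl2, -0.11 at Cxcl5 and -0.35 at Cxcl10 (adjusted p = 0.987, 1, 1 and 0.984). The widest gap at a region was at Cxcl2 +2.8 kb, which was 28.0 ± 11.2 rank points higher in LPSx2 (limma, unadjusted p = 0.0176, adjusted p = 0.945; higher in 5 of 7 animals). These tests do not show that the exposures left the same state. The comparisons of each LPS group with media share the media libraries. A call in LPSx1 alone (Cxcl10) or LPSx2 alone (Cxcl1 peak number, Cxcl2 +2.8 kb) is therefore not a difference between exposures.

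No member passed in the strain comparison. BTBR minus C57BL6/J, averaged over treatments, was 0.45 ± 0.332 peaks at Cxcl1, 0.18 at Cxcl2, 0.01 at Cxcl5 and 0.31 at Cxcl10 (limma, adjusted p = 0.650, 0.880, 1 and 0.664), where 1.22% of all genes were called. Among the regions, 0 of 13 were called, where 3.62% of all regions were. Cxcl2 +2.8 kb was -22.0 ± 9.07 rank points in BTBR (limma, adjusted p = 0.201). Within lanes 1 and 2, which set C57BL6/J animals 1 and 4 against BTBR animals 2 and 3, this was -44.2 (limma, adjusted p = 0.0434). In lanes 3 and 4 it was 5.76. Each animal gave 3 libraries, so the value in lanes 1 and 2 rests on these few animals and does not establish a strain difference. The gap was thus seen in animals 1 to 4, and lanes 3 and 4 had animal 7 alone for C57BL6/J in media and LPSx2. When each animal was left out in turn, the strain difference passed in 1 of 8 fits (limma, lowest adjusted p = 0.034). No tested member passed for a strain difference in the response to LPS (0 of 4 genes; 0.0328% and 0.0109% of all genes were called for LPSx1 and LPSx2). No member region was called either (0 of 13; 0.00347% of all regions for each dose). The largest gene term was -1.40 ± 0.687 peaks at Cxcl2 for LPSx1 (limma, unadjusted p = 0.0622, adjusted p = 0.874).

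The nearest-start rule gives some open DNA beside the cluster to other genes. These neighbours were chosen after their values were seen. Upstream of Cxcl5, 4 regions given to Rassf6, a Ras-association domain gene at the edge of the cluster, passed in LPSx2 and 3 of them also in LPSx1. The one nearest Cxcl5, at -63.0 kb from its start (chr5:90696169-90696536), was listed in 1 of 7 media, 6 of 8 LPSx1 and 5 of 7 LPSx2 libraries. Its rank value was 1.10 ± 2.91 in media, 47.2 ± 38.8 in LPSx1 and 51.5 ± 44.7 in LPSx2, a rise of 50.2 (limma, adjusted p = 0.00160) and 52.8 (adjusted p = 0.00121). The rises were 79.0 and 83.2 in lanes 1 and 2 (adjusted p = 0.00432 and 0.00446) and 13.2 and 10.1 in lanes 3 and 4 (adjusted p = 0.221 and 0.316). A second lay at -64.7 kb (rises of 36.4 and 33.6, adjusted p = 0.0132 and 0.0238). Its differences were 58.2 and 50.4 in lanes 1 and 2 and 6.63 and 5.81 in lanes 3 and 4 (adjusted p = 0.839 and 0.871). Both its calls were lost without animal 1, 3 or 4, and the LPSx2 call also without animal 5. The region at -69.4 kb passed in LPSx2 alone (39.0, adjusted p = 0.0102; 55.9 in lanes 1 and 2 and 15.7 in lanes 3 and 4). Its call was lost without animal 1 (adjusted p = 0.0634). The region at -147.8 kb passed in both (30.5 and 33.6, adjusted p = 0.0263 and 0.0164), though not without animal 1, 3 or 4. The number of peaks given to Rassf6 rose from a mean of 0.714 without LPS to 3.63 after a single and 4.00 after a repeated dose (adjusted p = 0.00547 and 0.00338). To which gene these regions are linked was not tested. At the start of Pf4, a platelet CXC chemokine between Cxcl5 and Cxcl3, a region (chr5:90772337-90772556) was listed in 3 media and 0 LPS libraries (adjusted p = 0.117 and 0.104).

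The wider CXC system was read from gene lists. Of 11 CXC and scavenging receptors 6 were tested, 3 were lower in LPSx1 and 2 in LPSx2, and none was higher; 2.28% and 2.80% of all genes were called lower. Cxcr5, a receptor best known from B cells and follicular helper T cells, fell from 2.86 peaks in media to 0.5 after a single and 0.714 after a repeated dose (limma, adjusted p = 0.00557 and 0.00856). Cxcr4, the receptor of Cxcl12, fell from 2.43 to 0.375 and 0.429 (adjusted p = 0.0348 and 0.0381). Ccrl2, an atypical receptor that presents chemerin, fell by 0.83 peaks in LPSx1 from 1.43 in media (adjusted p = 0.0219). The median difference of the 6 receptors was -0.42 in LPSx1 and -0.54 in LPSx2, against 0 over all genes. With the animal as a block Cxcr5 alone passed (adjusted p = 0.0256 and 0.0253), while Cxcr4 (0.0693 and 0.0506) and Ccrl2 (0.0672) did not. When each animal was left out in turn, Cxcr4 passed in 2 and 3 of 8 fits, Ccrl2 in 2, and Cxcr5 in 8 and 5. With full-length lists no gene passed, and the differences of Cxcr4, Cxcr5 and Ccrl2 changed sign, with Cxcr5 at 1.17 in LPSx1 (adjusted p = 0.757). Cxcr1 and Cxcr6 did not pass (adjusted p = 0.247 and 1 in LPSx1), Cxcr2 had no peak in any library, and Cxcr3 had 1 peak in all.

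Of 26 regulators of CXC transcription and mRNA decay 24 were tested. Traf3ip2, the adaptor Act1 that stabilises Cxcl1 mRNA downstream of the IL-17 receptor, rose from 0 peaks to 1.63 after a single and 2.00 after a repeated dose (limma, adjusted p = 0.0115 and 0.00428). Bcl3, an atypical IkB protein, rose in LPSx1 from 3.71 to 5.00 (adjusted p = 0.0464). Among mRNA decay factors, Zfp36l2 fell from 11.6 to 6.75 in LPSx1 (adjusted p = 0.0312) and Zfp36 from 5.71 to 3.71 in LPSx2 (adjusted p = 0.0350). With the animal as a block Bcl3 (adjusted p = 0.101) and Zfp36 (0.0506) did not pass. Of the 8 fits that each left out 1 animal, Bcl3 passed in 1 and Zfp36 and Zfp36l2 in 2, against 7 and 8 for Traf3ip2. Zfp36l2 also changed sign with full-length lists (4.51, adjusted p = 0.809), while Traf3ip2 was then 3.83 and 3.79 (adjusted p = 0.589 and 0.666). The other 20 tested regulators did not pass, and the list's median difference was 0.23 in LPSx1 and 0.04 in LPSx2. Of 10 proteases that cut CXC ligands 6 were tested, and Ctsb fell in LPSx2 from 4.57 to 2.43 (adjusted p = 0.0219; in 3 of 8 fits with an animal left out). Of 7 other CXC ligands only Cxcl14 was tested, and it did not pass. Of 77 genes within 500 kb of a member 29 were tested. Rassf6 was higher in both LPS groups, Gabarap and Asgr2 were lower in both and Ankrd17 was lower in LPSx2. Rassf6 passed in all 8 fits that left out an animal, and Gabarap, Asgr2 and Ankrd17 each in 2 or 3 of 8. With the animal as a block Gabarap did not pass (adjusted p = 0.0653 and 0.0629). With full-length lists Ankrd17 changed sign (0.79, adjusted p = 0.853).

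The genes whose peak numbers followed the members most closely across the 22 libraries, after centring within lanes, are given as a description. For Cxcl1 they were Tgfbi (Pearson r = 0.837), Neu1 (0.833) and Hvcn1 (0.823). For Cxcl10 they were P2rx3 (0.867), Zbp1 (0.784), a sensor of Z-form nucleic acid, and Gtdc1 (0.774). For Cxcl2 the values were lower, with Gm12117 at 0.734, Eif2a at 0.728 and Smim3 at 0.718, and for Cxcl5 they included Zfp575 (0.768) and Washc4 (0.703). The sum over the members was closest to Cd38 (0.839), Serinc5 (0.834), Katnbl1 (0.827), Fmnl2 (0.802) and Cep83 (0.798). The points share animals, lanes and list lengths, and the treatment was not removed. These values are the highest picked from the 9135 genes tested.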

How the data were processed

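Peak lists of 24 ATAC-seq libraries were used. Per the submitters' processing notes, reads were handled with Trimmomatic 0.38, SAMtools 1.8, Picard 2.18.4, HOMER and bedtools on mm10; the aligner is not given in the sources used here. Reads were 50 bp paired-end, with 6 libraries per pool, and lanes 1 to 4 each held 1 animal of each strain, per the labels' protocols. Additional PCR cycles were 6 to 8 in lanes 1 and 2 and 5 to 13 in lanes 3 and 4. The authors deposited a score per peak, in steps of 0.5, which served here for ranking alone.

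Overlapping peaks were merged to the higher score, lists under 5000 peaks were left out, and lists were limited to the shortest of their lane. Peaks went to the nearest GENCODE protein-coding start within 100 kb. Regions were unions of peaks overlapping by at least 1 bp. limma 3.58.1 (R 4.3.3, trend and robust) fitted 6 groups plus lane, with duplicateCorrelation (statmod 1.5.0) by animal for the strain contrast (consensus -0.00469 for genes, -0.0407 for regions), and Benjamini-Hochberg adjustment over all genes or regions at 0.05. Scripts were tested on simulated data. Tables and figures used Python 3.11.15, pandas 2.3.3 and matplotlib 3.10.9. Depth is known only as the number of peaks. Libraries with the same number come from the same animal, so the numbers pair them. Named are all 8 members, each region that passed, each member's most often listed region and each listed gene that passed. The members and lists were chosen with earlier results of these data known. Alternatives covered list length, merging, distance, minimum, lane, animal block and leaving out animals.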

Additional observations from a re-analysis of the deposited data

Results flagged for a closer look

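In 50 groups of 7 or 8 libraries, 12 held a library standing apart from the rest by its gap relative to the range. All 12 are cases in which most libraries were at 0, and a group with a single value above 0 is always flagged. The usual rate of about 1 in 20 does not apply to such groups, so the count was not compared with chance. The media library of BTBR animal 3 accounted for 5 of them: 3 peaks at Cxcl1, 1 peak at Cxcl10, and rank values of 35.7 at Cxcl1 -9.4 kb, 7.18 at Cxcl1 -14.2 kb and 16.2 at Cxcl10 -4.9 kb. Its list belonged to the longest lane (22037 peaks) and was among the 7 with overlapping copies. C57BL6/J animal 1 stood apart at Cxcl3, with 2 peaks in LPSx1 and rank values of 48.3 in LPSx1 and 43.8 in LPSx2 at Cxcl3 +2.4 kb. C57BL6/J animal 4 stood apart at Cxcl16, with 1 peak in media, and at Cxcl2 -6.3 kb, with 69.7 in LPSx2. The remaining values were 38.3 at Cxcl1 -32.0 kb in LPSx1 of BTBR animal 3 and 31.4 at the Cxcl10 promoter in LPSx2 of C57BL6/J animal 7.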

How the results depend on the processing

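Depth is known only as peaks per list, and the list length of a lane decides how weak a peak can be and still count. With full-length lists, lists limited within an animal, or no library left out, no gene passed in any contrast by limma, with 889, 544 and 1064 genes at an unadjusted p under 0.05 in LPSx1. The Cxcl1 difference in LPSx2 was then 4.92, 2.71 and 4.38 peaks (adjusted p = 0.832, 0.963 and 0.811). The Cxcl10 difference in LPSx1 was 1.39, 1.05 and 1.38 (adjusted p = 0.686, 1 and 0.590). Without the 7 lists with overlapping copies, Cxcl1 was 1.67 and Cxcl10 0.997. Without the lane in the fit they were 1.79 and 1.13 (adjusted p = 0.306 and 0.0697). In lanes 1 and 2 they were 2.25 and 1.00, and in lanes 3 and 4 1.00 and 1.13. With distal peaks alone Cxcl10 was 0.469. The cause was not tested.

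The Cxcl1 -9.4 kb region was higher in LPSx1 by 19.1 without the lists with copies, 33.2 without the lane, and 49.3 and 18.4 in the lane pairs. In LPSx2 it was higher by 36.7 with no library left out, 12.2 without the lists with copies, 34.5 without the lane, and 48.7 and 12.1 in the lane pairs. The Cxcl2 +2.8 kb region in LPSx2 was higher by 35.7 without the lists with copies and 28.8 in lanes 3 and 4. No member value that had passed changed sign. Among the listed genes, 5 changed sign with full-length lists and with no library left out, none of them passing. Cxcr4 was 1.28 and 0.875 in LPSx1 and 0.333 and 0.125 in LPSx2, and Cxcr5 was 1.17 and 1.13 in LPSx1 and 0.125 and 0.125 in LPSx2. Ccrl2 was 0.490 and 0.250 and Zfp36l2 4.51 and 3.63 in LPSx1, and Ankrd17 was 0.792 and 0.750 in LPSx2.

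With the replicate block (the animal as a term) 353 genes passed in LPSx1 and 475 in LPSx2. Cxcl1 in LPSx2 was 1.79 (adjusted p = 0.0194), Cxcl10 in LPSx1 1.08 (adjusted p = 0.0267), and Cxcl10 -4.9 kb in LPSx2 passed (26.5, adjusted p = 0.0396). The block changed no other member call. Among the listed genes it ended the calls of Cxcr4 and Gabarap in both LPS groups, of Ccrl2, Bcl3 and Lyz2 in LPSx1 and of Zfp36 in LPSx2. The counts for the strain by LPSx2 interaction were 2 genes and 5 regions with the block, and 0 regions for LPSx1.

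Genes passing for strain, LPSx1, LPSx2, LPSx2 minus LPSx1 and the LPSx1 and LPSx2 interactions were 111, 510, 568, 0, 3 and 1. They were 197, 799, 823, 0, 1 and 0 with distal peaks alone, 99, 102, 100, 25, 40 and 45 in lanes 1 and 2, and 489, 503, 592, 297, 343 and 414 in lanes 3 and 4. They were 16, 112, 150, 0, 2 and 1 without the lane, 227, 833, 928, 0, 4 and 1 with no minimum, and 249, 689, 1282, 0, 0 and 0 with lists not merged. They were 129, 476, 556, 2, 1 and 1 on square roots, 55, 225, 313, 1, 2 and 1 with the stronger peaks of each list (50%), and 57, 393, 454, 0, 2 and 1 within 25 kb. Without the lists with copies they were 252, 74, 93, 35, 39 and 61.

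Regions passing, in the same order, were 1041, 4407, 5054, 0, 1 and 1. They were 43, 2838, 2495, 0, 0 and 0 with full-length lists, 557, 1728, 1550, 0, 0 and 0 in lanes 1 and 2, and 1031, 921, 1426, 312, 451 and 764 in lanes 3 and 4. They were 117, 1156, 1338, 0, 0 and 0 without the lane, 27, 2239, 1035, 0, 0 and 0 with no library left out, and 766, 2864, 3191, 0, 4 and 4 with no minimum. They were 370, 1768, 1971, 5, 50 and 56 on presence or absence. They were 985, 4176, 4814, 0, 3 and 1 when peaks were joined into a region only if they overlapped by at least 100 bp. Without the lists with copies they were 1110, 753, 481, 0, 30 and 0.

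Leaving out each animal in turn gave 76 to 141 genes for strain, 201 to 384 for LPSx1, 207 to 567 for LPSx2, 0 to 2 for LPSx2 minus LPSx1, and 1 to 7 and 1 to 9 for the interactions. For regions these were 611 to 1643, 2129 to 4034, 2265 to 5047, 0 to 0, 0 to 3 and 0 to 8. Cxcl1 in LPSx2 ranged from 1.63 to 2.13 peaks and Cxcl10 in LPSx1 from 0.990 to 1.23. Cxcl1 -9.4 kb ranged from 29.1 to 44.0 in LPSx1 and 28.9 to 42.6 in LPSx2, and Cxcl2 +2.8 kb from 44.2 to 63.2 in LPSx2.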
